A study of Trichoderma reesei RUT C-30 with 16 samples.

Results

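The genes described here are *res2* (TrA1112W in the count tables), the gene deleted in the mutant strain Δ*res2*, and the 3 genes that lie next to it on chromosome I of *Trichoderma reesei*, TrA1111C, TrA1113C and TrA1114W. They are 4 of the 10008 genes counted. The neighbours were chosen by their position. The sources used here give no identifier of *res2* in the count tables, so TrA1112W was chosen by its counts, which were high in every library of the parent and close to 0 in every library of the mutant. TrA1112W was the 1 gene with at least 100 counts in all Rut-C30 libraries and at most 3 counts in all Δ*res2* libraries, and 0 genes showed the opposite pattern. The absence of its transcript in Δ*res2* is therefore how it was found, and is described below without a test.

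RES2 is a transcription factor known from *Neurospora crassa*, another filamentous fungus, where it takes part in the secretion of cellulases and hemicellulases. Rut-C30 is an industrial hyperproducer of cellulases obtained by random mutagenesis, and it carries a truncated gene of the carbon catabolite repressor CRE1. Secreted proteins fold in the endoplasmic reticulum (ER), where disulfide bonds hold many of them in shape. Dithiothreitol (DTT) reduces these bonds, so that unfolded proteins accumulate and the unfolded protein response raises the genes of chaperones and of protein degradation. Lactose induces cellulases in *T. reesei* and thus adds a secretory load of its own.

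Polyadenylated RNA was sequenced from fed-batch cultures of Rut-C30 and of Δ*res2* in 4 conditions, with 2 cultures in each of the 8 groups. GC was fed glucose, GD was fed glucose and received 10 mM DTT for 2 h before sampling, LC was fed lactose, and LD was fed lactose and received the same DTT treatment. All cultures had grown in a glucose batch before the feeding. Δ*res2* was made from Rut-C30 with CRISPR-Cas9, and a hygromycin resistance gene (*hph*) took the place of *res2*. The mutant stands for 1 transformant, so that an effect of the deletion, of the inserted gene and of this particular transformant cannot be told apart. The counts on genes came to between 20.4 and 35.7 M per library. Duplicates were far closer in lactose than in glucose, also for these genes. Over the 4 genes the higher duplicate was 1.04 to 2.15 times the lower one in 14 pairs of glucose libraries and 1 to 1.16 times in 14 pairs of lactose libraries (*res2* in Rut-C30 only). The biological coefficient of variation over all genes was 0.355 for all libraries, 0.494 for the glucose libraries alone and 0.0711 for the lactose libraries alone. The fit of all 16 libraries therefore assumed more spread than the lactose duplicates showed and less than the glucose duplicates showed. The glucose libraries of Rut-C30 carry numbers from another series than all other libraries, so that for every comparison that sets these 4 libraries against others the culture and this series cannot be told apart. These are LC/GC and LD/GD in Rut-C30, the strains in GC and GD, the strain effect averaged over the conditions and the strain differences in LC/GC and LD/GD.

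In the deposited annotation of the QM6a chromosomes, *res2* occupies 3588003 to 3589547 of chromosome I on the plus strand, as 1 exon with a coding length of 1545 bp. TrA1111C lies before it, at 3581085 to 3582313 on the minus strand, with 4 exons and a coding length of 648 bp. Both genes start toward each other across 5689 bp. TrA1113C lies after *res2*, at 3590959 to 3593313 on the minus strand, with 3 exons and a coding length of 2196 bp. *res2* and TrA1113C end toward each other across 1411 bp, the shortest gap in this group. TrA1114W follows at 3595612 to 3596910 on the plus strand, with 2 exons and a coding length of 1236 bp, and it starts 2298 bp from the start of TrA1113C. TrA1114W is TRIREDRAFT_58170, and the sources used here give no function for any of the neighbours. The gene models hold coding sequence without UTRs (the length of 99.1% of them is a multiple of 3), so transcripts may reach further into these gaps than the positions show. The libraries kept the strand of the RNA, but the strand setting of the counting was not stated, which bears on genes that face each other.

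All 4 genes were well expressed in Rut-C30. Per kilobase of coding sequence and per M counts, the mean level over its 8 libraries was 104 for TrA1111C, 103 for *res2*, 58.9 for TrA1113C and 119 for TrA1114W. The median of 9847 annotated genes was 17.3 on this scale, and between 77.2% and 87.4% of the genes lay below these 4. *res2* was thus transcribed at a level close to that of TrA1111C and TrA1114W, and TrA1113C was lower than the other three.

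Transcript of *res2* was almost absent from Δ*res2*. Of raw counts, the duplicates of Rut-C30 held 2900 and 3281 (GC), 7006 and 6426 (GD), 3802 and 3177 (LC) and 7046 and 6534 (LD). Those of Δ*res2* held 0 and 2 in GC, 1 and 2 in LC and 0 in all libraries of GD and LD, which adds up to 5 counts against 40172 in Rut-C30. These are the counts that chose the gene. Scaled for depth, the level was 2509 times as high in Rut-C30 as in Δ*res2* in GC and 1949.8 times as high in LC. These ratios rest on 2 and 3 counts in Δ*res2*, with 95% intervals for counting error of 694 to 20726 and 667 to 9457. Against a floor of 3 counts per library, the level was at least 1457-fold higher in GD and at least 1676-fold higher in LD. The floor covers counting error only. The source of the few remaining counts was not tested.

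**Figure D1:**
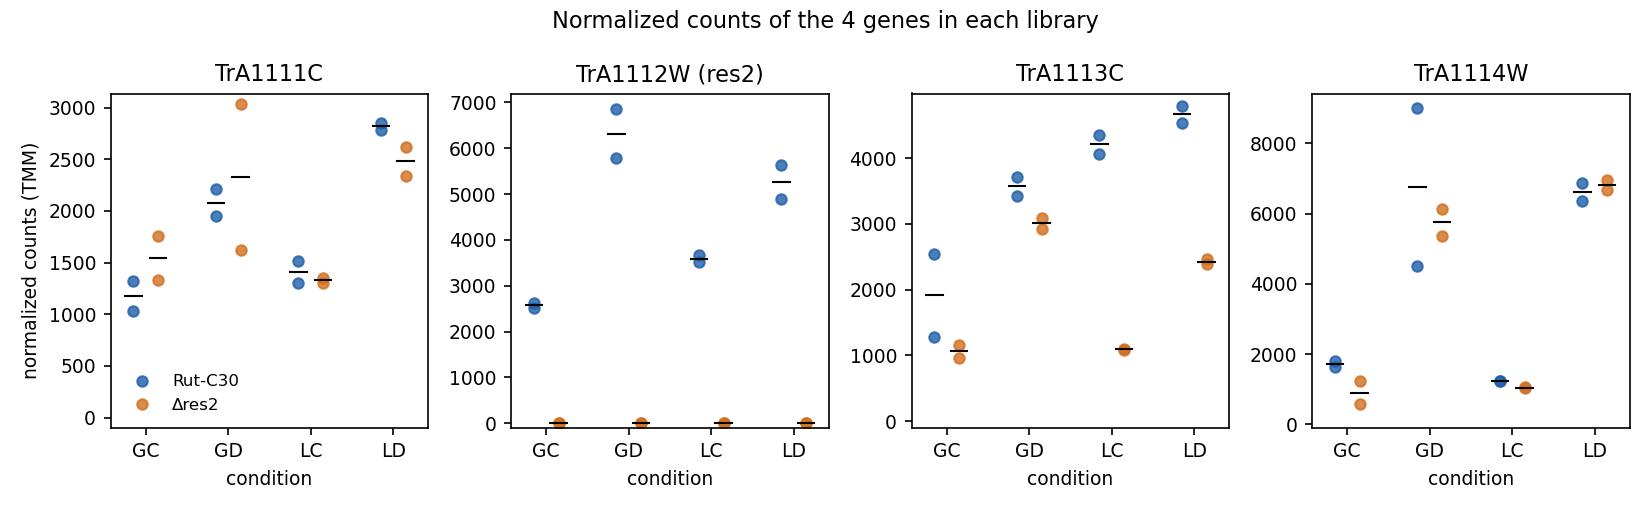
Normalized counts (TMM, linear axis) of TrA1111C, *res2*, TrA1113C and TrA1114W in each of the 16 libraries, by condition. Points are libraries, black bars the mean of 2. *res2* is near 0 in all Δ*res2* libraries, TrA1113C lies lower in Δ*res2* in all 4 conditions, with 1086 and 1098 against 4067 and 4351 in LC, and TrA1114W is high in GD and LD of both strains.

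In Rut-C30, *res2* was itself higher in the DTT cultures. It had 2622 and 2519 normalized counts in the duplicates of GC, 3508 and 3661 in LC, 5628 and 4904 in LD, and 6853 and 5778 in GD. The order was GC, LC, LD and GD, and no library of a condition overlapped with that of another (1.45% of 9101 fitted genes had this same order without overlap). *res2* rose 2.46-fold in GD/GC, by 1.30 ± 0.34 on the log2 scale (SE, 2 libraries against 2, Benjamini-Hochberg adjusted p = 0.018 by the quasi-likelihood test of edgeR). This is a common change, since 15.3% of the fitted genes were called higher in GD/GC of Rut-C30 at an adjusted p under 0.05. The size of the rise held without each library in turn, between 1.17 and 1.41 on the log2 scale. The call did not, since it was lost without the second GC library of Rut-C30 (log2 fold change 1.35) or without its first GD library (1.17). In the fit of all libraries the spread of *res2* was estimated also from the Δ*res2* libraries, where the gene is deleted.

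The other steps between the conditions were smaller. LD/LC of *res2* in Rut-C30 was 0.56 ± 0.34 (log2, adjusted p = 0.219, edgeR's quasi-likelihood test), and 19.3% of the genes were called higher in this comparison. This SE comes from the fit of all 16 libraries, which include those of Δ*res2*, where the gene is deleted. It was smaller in fits of Rut-C30 libraries alone. With the spread of the lactose libraries of Rut-C30 alone the same change of 0.56 passed (SE 0.09, adjusted p = 7.72e-05, edgeR). The share of all genes called in that fit was not counted. Its duplicates in LC and LD were in fact close, and the lowest LD value of 4904 lay well above the highest LC value of 3661. LC/GC was 0.48 ± 0.34 (adjusted p = 0.508) and LD/GD was -0.26 ± 0.34 (adjusted p = 0.737, edgeR). With all libraries, neither passed in edgeR, at an unadjusted p under 0.05, or in DESeq2. With only the libraries compared, LC/GC was 0.55 ± 0.13 (unadjusted p = 0.014, adjusted p = 0.155, edgeR) and did not pass with adjustment. In the order of the levels, no condition thus passed the test against the next one in the fit of all libraries, and the lowest passed against the highest. LD/LC minus GD/GC was -0.74 ± 0.48 on the log2 scale, so that the response to DTT was smaller in lactose, by a difference that did not pass (adjusted p = 0.623, edgeR). In all, 0.846% of the genes were called for it. In the fit of the 8 Rut-C30 libraries alone, chosen after the data were seen, GD/GC was 1.36 ± 0.15 (adjusted p = 0.00118) and LD/LC was 0.57 ± 0.15 (adjusted p = 0.0183, edgeR). More genes were called higher in that fit as well, 23.8% in GD/GC and 27.5% in LD/LC.

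The DTT response of *res2* was modest beside that of the secretion stress genes that the study names with identifiers. These are *bip1*, an ER chaperone, *pdi1*, a protein disulfide isomerase, and *hrd1* and *lcl2* of ER-associated degradation. In Rut-C30, 4 of 4 rose in GD/GC, beside 15.3% of all genes, with a median of 2.94 on the log2 scale (all fitted genes -0.15). In LD/LC 3 of 4 rose, beside 19.3% of all genes, with a median of 1.59 (all fitted genes -0.05). The list was chosen by the study on these samples and is no independent evidence of its direction. *bip1* rose by 4.78 ± 0.49 in GD/GC and by 3.08 ± 0.46 in LD/LC (adjusted p = 9.33e-05 and 0.000462, edgeR). *lcl2* was closest to *res2* in its size of response, with a rise of 2.07 ± 0.36 in GD/GC (adjusted p = 0.00166) and 0.50 ± 0.34 in LD/LC (adjusted p = 0.267, edgeR). In LC/GC of Rut-C30, 1 of the 4 rose, namely *bip1*, with a median of 1.22 over the list, and 2.67% of all genes were called higher there.

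The study also names regulator genes with identifiers. Of 9 such genes in Rut-C30, 1 rose and 2 fell in GD/GC, and 0 rose and 5 fell in LD/LC, with medians of -1.12 and -1.45 on the log2 scale. Of all genes, 19.2% and 22.1% were called lower in these comparisons. The one that rose was TrC1573C (TRIREDRAFT_105784), by 2.71 ± 0.79 (adjusted p = 0.0226, edgeR). *vib1*, a regulator of cellulase genes, fell by 2.27 in GD/GC (SE 0.38, adjusted p = 0.0014) and fell by 3.56 in LD/LC (SE 0.40, adjusted p = 0.000109, edgeR), where *res2* was at 1.30 and 0.56. In Δ*res2*, 1 rose and 7 fell in GD/GC and 0 rose and 5 fell in LD/LC, where 21.7% and 21.9% of all genes were called lower. None of the 9 regulators and none of the 4 stress genes passed the strain effect averaged over the conditions in edgeR, for which 0.044% of all genes were called. At an unadjusted p under 0.05 these counts were 5 and 0 (870 of all 9101 genes), and by DESeq2 they were 1 and 0 (105 of all genes). The 9 regulators were named by the study with these samples in view. All but *vib1* were listed there as regulated in only 1 strain, most of them in GD/GC of Δ*res2*. The counts of rises and falls in each strain thus rest on this choice and do not compare the strains.

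The genes whose profile over the 8 Rut-C30 libraries was most like that of *res2* lay elsewhere in the genome. Likeness was measured as the root mean square difference of centred log2 values, where 0 means the same profile and the median of 9100 genes was 0.76. The closest were TrB0890W, TrC1270C, TrG1123C and TrA1157C at 0.11 and TrA2067C at 0.13, on chromosomes II, III, VII, I and I, and the sources used here give no names for them. Their GD/GC lay between 1.09 and 1.45 and their LD/LC between 0.50 and 0.74 on the log2 scale. The direct neighbours of *res2* were less like it than these genes, but TrA1111C and TrA1113C were more like it than the median gene. TrA1111C ranked 438 (0.30), TrA1113C 2024 (0.48) and TrA1114W 4326 (0.74), the last close to the median gene. Libraries of a condition share their culture conditions, so that this is a description of 8 libraries.

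TrA1113C, the gene that ends toward *res2*, was lower in the mutant. In GC, Rut-C30 had 1286 and 2542 normalized counts of this gene where Δ*res2* had 964 and 1162, and in GD the parent had 3430.2 and 3714 where the mutant had 3096 and 2926. In LC the parent had 4351 and 4067 where the mutant had 1098 and 1086, and in LD 4791 and 4540.2 where the mutant had 2385 and 2459. Both Δ*res2* libraries lay below both Rut-C30 libraries in each of the 4 conditions, a pattern that 1.13% of the fitted genes showed. The gap was widest in LC, where Rut-C30 had a mean of 4209 ± 201 and Δ*res2* one of 1092 ± 8.45 (SD, n = 2 each), and narrow in GD, where it was 3572 ± 201 and 3011 ± 120.

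Averaged over the 4 conditions, TrA1113C was 2-fold lower in Δ*res2*, with a log2 strain effect of -1.0 ± 0.14 (adjusted p = 0.0325, edgeR's quasi-likelihood test). This was 1 of 4 genes called for the averaged strain effect, 0.044% of 9101. Another of the 4 was *res2* itself, whose call was fixed by the way it was chosen and is no result. The rest were TrC1550C (1.28 ± 0.14) and TrA1041W (-0.90 ± 0.10), both with an adjusted p of 0.00718 (edgeR) and named after their values were seen. At an unadjusted p under 0.05 there were 870 genes, and DESeq2 called 105. By the size of the fall, 120 genes (1.32%) had a more negative average than TrA1113C. The direction of TrA1113C held without each of the 16 libraries in turn, between -1.08 and -0.83. The call did not, since it was lost (adjusted p 0.0731 to 0.203) in 11 of these 16 fits, that is, without any 1 of the 8 lactose libraries, without either GD library of Rut-C30 or without the first GC library of Δ*res2*. DESeq2 gave -0.98 with an adjusted p of 2.14e-08. The average includes the glucose libraries of Rut-C30 with numbers from another series, which the average over the lactose libraries alone (-1.43 ± 0.05, edgeR) does not.

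**Figure D2:**
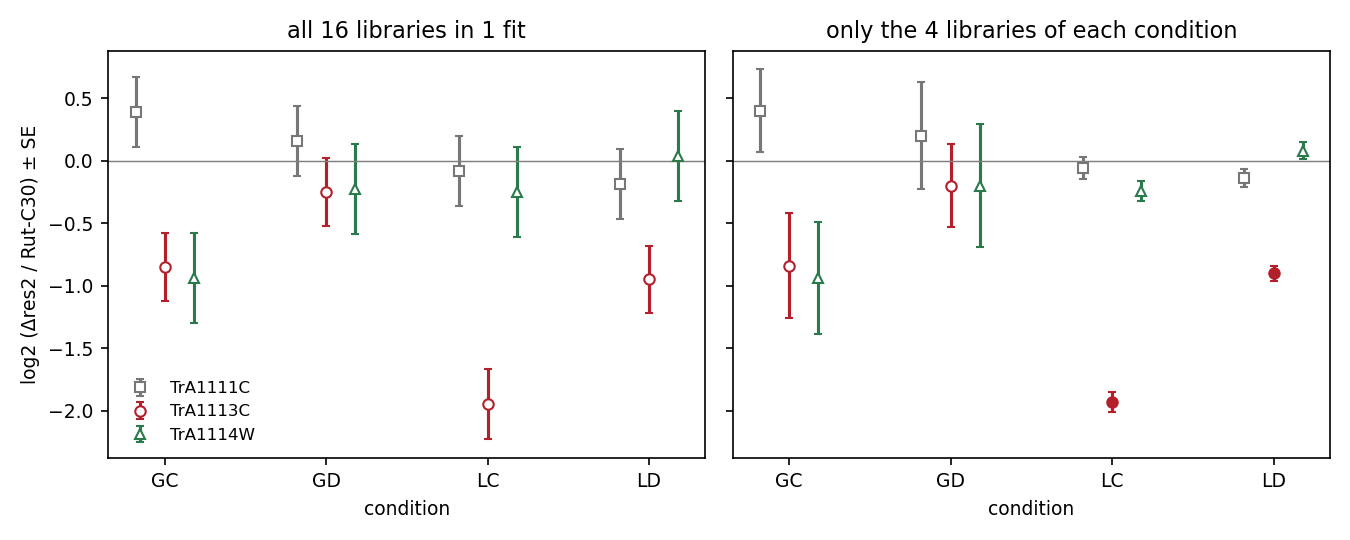
Log2 ratio of Δ*res2* to Rut-C30 in each condition for the 3 neighbours of *res2*, with SE, from the fit of all 16 libraries (left) and from fits of the 4 libraries of each condition alone (right). Filled symbols have an adjusted p under 0.05. TrA1113C lies at -1.95 in LC and at -0.95 in LD on the left and passes in both lactose conditions on the right, where the errors are smaller.

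Within single conditions the strain effect of TrA1113C was -0.85 ± 0.27 in GC, -0.25 ± 0.27 in GD, -1.95 ± 0.28 in LC and -0.95 ± 0.27 in LD on the log2 scale. None passed in the fit of all libraries, with adjusted p of 0.673, 0.784, 0.0684 and 1 (edgeR), and neither did any comparison of the other neighbours. The GC value depended on the GC duplicates of Rut-C30, at -1.24 without the first and -0.23 without the second of them. Of the 12 comparisons, 4 had an unadjusted p under 0.05, and DESeq2 called 1, TrA1113C in LC (-1.95, adjusted p = 2.83e-08). Very few genes were called at all in the edgeR fit, 0.033% in GC, 0.0549% in GD, 0.022% in LC and 0.011% in LD. The shares of all genes at an unadjusted p under 0.05 or by DESeq2 were not counted for single conditions. The errors were smaller in fits of the lactose libraries alone. With the 4 LC libraries alone the strain effect of TrA1113C was -1.93 ± 0.08 (adjusted p = 6.48e-07), and with the 4 LD libraries alone -0.90 ± 0.06 (adjusted p = 1.37e-06, edgeR). In these fits 2.5% and 4.93% of the genes were called lower. Averaged over the lactose libraries alone, the effect was -1.43 ± 0.05 (adjusted p = 1.66e-10, edgeR), where 9.85% of 8889 genes were called lower and 19 genes (0.214%) had a more negative value. In the 4 GC libraries alone it was -0.84 ± 0.42 and in the 4 GD libraries alone -0.20 ± 0.33, and neither passed (adjusted p = 0.99 and 0.999, edgeR).

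The responses of TrA1113C to DTT and to lactose were tested in each strain. In Rut-C30 it rose in GD/GC by 0.90 ± 0.27 (log2, adjusted p = 0.0249) and was at 0.15 ± 0.27 in LD/LC (adjusted p = 0.679, edgeR). In Δ*res2* it rose in both, by 1.5 ± 0.27 in GD/GC (adjusted p = 0.00184) and 1.15 ± 0.27 in LD/LC (adjusted p = 0.00666, edgeR). In the mutant 19.5% and 19% of the genes were called higher in these comparisons. In LC/GC, TrA1113C rose by 1.14 ± 0.27 in Rut-C30 (adjusted p = 0.0451), where 2.67% of the genes were called higher, and was at 0.04 ± 0.27 in Δ*res2* (adjusted p = 0.946, edgeR), where 3.71% were. The calls in Rut-C30 were fragile. Its GC duplicates of 1286 and 2542 were far apart, and without the first of them GD/GC was 0.54 (adjusted p = 0.0901) and LC/GC was 0.78 (adjusted p = 0.141). The GD/GC call was also lost without either GD library of Rut-C30 (0.84 and 0.96), and the LC/GC call in 11 of the 16 fits without 1 library (adjusted p 0.0652 to 0.223), that is, also without either GD library of Rut-C30 or any 1 of the 8 lactose libraries. With only the libraries compared, these calls and that of GD/GC in Δ*res2* were lost, with GD/GC at 0.96 ± 0.38 in the parent (adjusted p = 0.148) and 1.51 ± 0.56 in the mutant (adjusted p = 0.14), and LC/GC at 1.20 ± 0.38 in the parent (adjusted p = 0.208, edgeR). The LD/LC call of the mutant was kept there (1.18 ± 0.06, adjusted p = 2.81e-08, edgeR), in a fit where the share of all genes called was not counted.

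The difference between the strains was 1.0 ± 0.38 in LD/LC and -1.10 ± 0.38 in LC/GC (response in Δ*res2* minus response in Rut-C30, log2). Unadjusted p was 0.0232 and 0.0148, and neither passed with adjustment (adjusted p = 1 for both, edgeR). GD/GC and LD/GD differed by 0.60 ± 0.38 and -0.70 ± 0.38 (adjusted p = 0.919 and 1). No response of any neighbour differed between the strains in this fit, 0 of 12 tests by edgeR and 0 by DESeq2, and 2 at an unadjusted p under 0.05, both of TrA1113C. Over all genes the count called was 0 in GD/GC, LD/LC and LD/GD and 1 in LC/GC, that is 0.011%. For LD/LC, 66 genes lay under an unadjusted p of 0.05, and DESeq2 called 0. For LC/GC these counts were 227 and 10. In the lactose libraries alone, the difference in LD/LC was 1.06 ± 0.10 (adjusted p = 6.15e-05, edgeR), and 2.61% of the genes were called higher there. LC and LD of both strains carry library numbers of a single series.

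**Figure D3:**
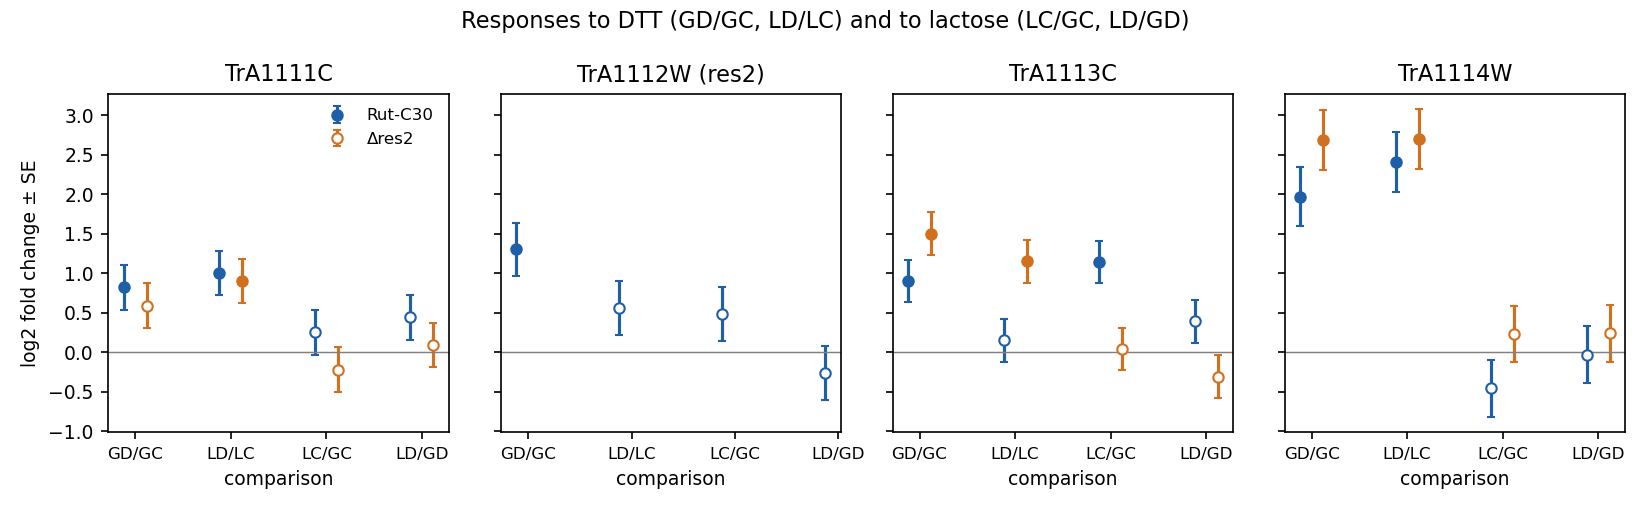
Log2 fold change ± SE of TrA1111C, *res2*, TrA1113C and TrA1114W for DTT (GD/GC, LD/LC) and for lactose (LC/GC, LD/GD), in Rut-C30 (blue) and Δ*res2* (orange), from the fit of all 16 libraries. Filled symbols have an adjusted p under 0.05, and *res2* is shown for Rut-C30 only. TrA1114W lies between 1.97 and 2.7 in all DTT comparisons, and TrA1113C at 0.15 and 1.15 in LD/LC of the parent and the mutant.

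TrA1114W responded most to DTT of the group, in both strains. In glucose its normalized counts went from 1627 and 1811 without DTT to 8994 and 4498 with DTT in Rut-C30, and from 567 and 1220.5 to 5363 and 6127 in Δ*res2*. In lactose they went from 1247 and 1246 to 6353 and 6882 in Rut-C30, and from 1039 and 1052 to 6666 and 6947 in Δ*res2*. In each DTT comparison between 15.3% and 19.5% of the genes were called higher. Every DTT library of TrA1114W lay above every library without DTT, and the share of genes with this pattern was not counted.

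It rose 3.92-fold in GD/GC (log2 1.97 ± 0.37, adjusted p = 0.00258) and 5.31-fold in LD/LC of Rut-C30 (2.41 ± 0.38, adjusted p = 0.000638, edgeR). In Δ*res2* it rose 6.43-fold in GD/GC (2.69 ± 0.38, adjusted p = 0.000448) and 6.51-fold in LD/LC (2.7 ± 0.38, adjusted p = 0.000366, edgeR). These calls held without each library in turn, with GD/GC between 1.39 (without the first GD library) and 2.39 (without the second) in Rut-C30, and between 2.31 and 3.34 in Δ*res2*. With only the libraries compared, GD/GC of the mutant did not pass (2.7 ± 0.67, adjusted p = 0.0504, edgeR). Of the 4 comparisons, 3 also passed the limits of the study (adjusted p under 0.005, log2 fold change beyond 2 and on average 100 or more normalized counts), which 3.83% of the genes passed upward in LD/LC of Rut-C30, 4.31% in GD/GC and 3.69% in LD/LC of Δ*res2*. GD/GC of Rut-C30 just missed the limit of 2, and its GD duplicates differed 2-fold. Lactose brought no call, with LC/GC at -0.46 ± 0.36 in Rut-C30 and 0.23 ± 0.36 in Δ*res2*. LD/GD was -0.03 ± 0.36 and 0.24 ± 0.36, in comparisons where 3.33% and 2.77% of all genes were called.

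Between the strains TrA1114W was at -0.35 ± 0.18 on average (log2, adjusted p = 0.557, edgeR). In GC both Δ*res2* libraries lay below both Rut-C30 libraries and the strain effect was -0.94 ± 0.36 (unadjusted p = 0.024, adjusted p = 0.726, edgeR), with Δ*res2* duplicates that differed 2.15-fold. It was -0.50 without the first of these and passed without the second (-1.60, adjusted p = 0.0187, edgeR). In GD and LD the libraries of the strains overlapped, at -0.23 ± 0.36 and 0.04 ± 0.36. In LC both mutant libraries were lower by a small margin, at -0.25 ± 0.36, and with the 4 LC libraries alone at -0.24 ± 0.08 (adjusted p = 0.0795, edgeR). How many of all genes had libraries separated like this in GC or in LC was not counted.

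TrA1111C, which starts toward *res2*, showed no averaged difference between the strains. In GC it had 1033 and 1325 normalized counts in Rut-C30 against 1754 and 1335 in the mutant, and in GD 1946 and 2215 against 1617 and 3036. In LC it had 1301 and 1513 against 1352 and 1302, and in LD 2854 and 2783 against 2621 and 2335. The strains overlapped in GD and LC, while the mutant was higher in GC and lower in LD in both duplicates. Neither of these differences passed, at 0.39 ± 0.28 in GC and -0.19 ± 0.28 in LD (log2, edgeR). The share of all genes separated in this way in a single condition was not counted. The averaged strain effect was 0.07 ± 0.14 (log2, adjusted p = 0.876, edgeR) and turned to -0.12 ± 0.06 in the lactose libraries alone (adjusted p = 0.166) and to -0.06 without the second GD library of Δ*res2*.

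TrA1111C also rose with DTT, by 0.82 ± 0.28 in GD/GC (log2, adjusted p = 0.042) and 1.0 ± 0.28 in LD/LC of Rut-C30 (adjusted p = 0.0149, edgeR). In Δ*res2* it rose by 0.90 ± 0.28 in LD/LC (adjusted p = 0.0246), and GD/GC was 0.59 ± 0.28 (adjusted p = 0.111, edgeR), with the lowest GD library of 1617 below the higher GC library of 1754. The GD/GC call in Rut-C30 was lost in 12 of 16 fits without 1 library (adjusted p 0.0615 to 0.174), those without any 1 of the 4 glucose libraries of Rut-C30 or of the 8 lactose libraries. Each LD/LC call was lost without any 1 of the 4 libraries it compares (adjusted p up to 0.106 in the parent and 0.12 in the mutant). GD/GC of the mutant, in turn, passed without its first GD library (1.01, adjusted p = 0.0068) and was 0.06 without the second (adjusted p = 0.842, edgeR). With only the libraries compared, the GD/GC call of the parent was lost as well (0.88 ± 0.21, adjusted p = 0.0609, edgeR). With the lactose libraries of each strain alone, LD/LC was 1.01 ± 0.09 in the parent (adjusted p = 8.41e-08) and 0.93 ± 0.07 in the mutant (adjusted p = 5.84e-07, edgeR). The share of all genes called in these fits was not counted. LC/GC and LD/GD lay between -0.22 and 0.44 in both strains and none passed.

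All 4 genes were thus called higher in GD/GC of Rut-C30, beside 15.3% of all genes, and of the 3 neighbours TrA1111C and TrA1114W were called in LD/LC. In Rut-C30 the values of *res2* and TrA1113C were larger in GD/GC and those of TrA1111C and TrA1114W in LD/LC, but LD/LC minus GD/GC did not pass for any of them. It was 0.18 ± 0.39 for TrA1111C, -0.74 ± 0.48 for *res2*, -0.75 ± 0.38 for TrA1113C and 0.44 ± 0.51 for TrA1114W (log2, adjusted p between 0.474 and 0.937, edgeR).

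Further out, the median strain effect of the locus lay close to that of all genes. Of the 10 counted genes on each side of *res2*, 6 had a positive and 14 a negative averaged strain effect. Of all 9101 fitted genes, 4414 were positive and 4687 negative. The median of the 20 was -0.10 on the log2 scale against -0.01 for all fitted genes. TrA1113C was the 1 gene called among these 20. The other 17 beyond the neighbours lay between -0.50 and 0.73, and the smallest adjusted p among them was 0.557 (edgeR). Of these 17, 0 passed without adjustment at 0.05, and DESeq2 called 0. Of all 9101 genes, 870 passed without adjustment and DESeq2 called 105, so a count of 0 among 17 genes says little about the locus. The 2 extreme values belonged to TrA1115C (-0.50 ± 0.42), with 0 to 17 counts per library, and TrA1103C (0.73 ± 0.46), with 2 to 19 counts per library. Both were named after their values were seen. In the lactose libraries alone 4 of 19 fitted genes passed (21.1%), close to the 22.3% of all genes. Of these, TrA1113C was lower, and TrA1106C (0.41 ± 0.06), TrA1107C (0.42 ± 0.07) and TrA1108W (0.56 ± 0.09), which lie side by side, were higher in Δ*res2* (named after their values were seen). These genes are 15885 to 21708 bp from *res2*.

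**Figure D4:**
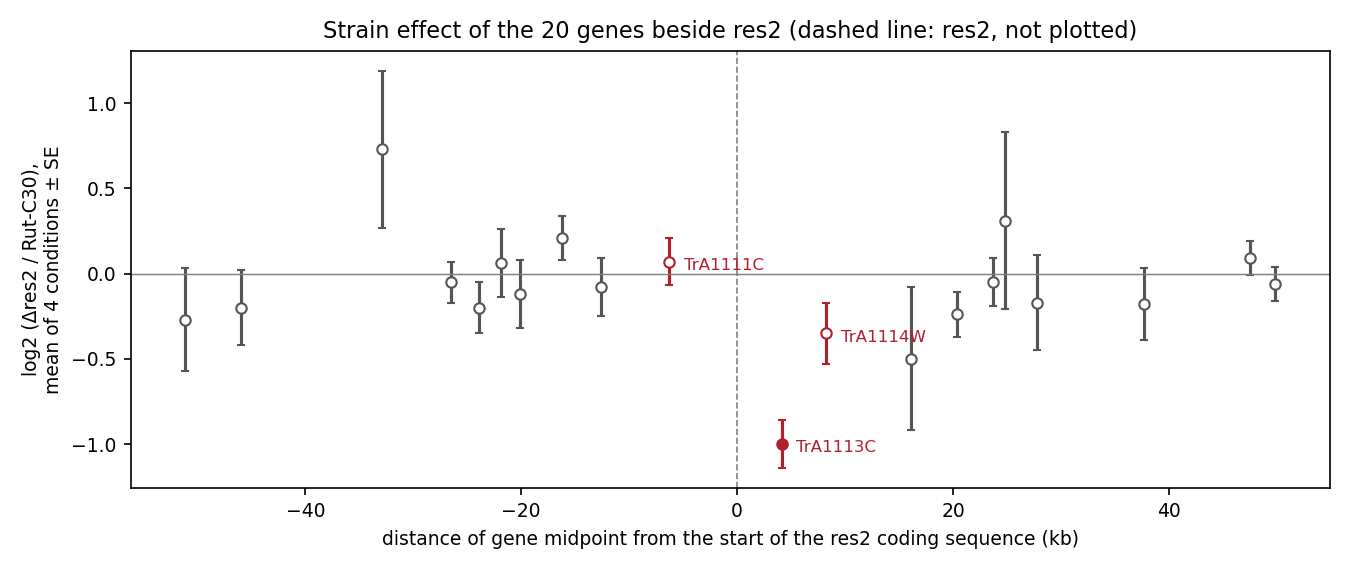
Averaged strain effect (log2 of Δ*res2* over Rut-C30, mean of 4 conditions, ± SE) of the 10 counted genes on each side of *res2*, by the distance of their midpoint from the start of *res2* in kb. Red symbols are the 3 neighbours, and the filled symbol has an adjusted p under 0.05. TrA1113C at -1.0 stands below the others, which lie between -0.50 and 0.73.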

How the data were processed

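Counts of 10008 genes in 16 libraries were analysed. The authors aligned reads to the QM6a genome with STAR, kept those with 1 alignment and counted them on coding sequences with HTSeq-count. The submitters' processing notes name STAR 2.7.8a, HTSeq 0.5.3 and DESeq2 1.8.1. The deposited counts were not normalized. Groups came from the sample labels, and positions from the deposited annotation, where 9847 genes were found.

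All libraries were fitted in 1 model with edgeR 4.0.16 (R 4.3.3, TMM factors, filterByExpr, 9101 genes, 8 group means, 8 residual degrees of freedom, glmQLFit with robust estimation). P-values of all fitted genes were adjusted together (Benjamini-Hochberg) and called under 0.05. SE was the absolute log2 fold change divided by the square root of F. The duplicates are biological according to the methods. Alternatives were DESeq2 1.42.0, its size factors, all genes with at least 1 count, only the libraries compared, a replicate block, each library left out in turn, an adjusted p under 0.005 and a window of 5 genes. The averaged strain effect alone was also tested on simulated data. There a gene had the same spread in all libraries, unlike the glucose and lactose libraries here.

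The genes and lists were chosen with earlier results of these data known. Named genes are the 4 genes, called genes among the 10 on each side, stress genes and regulators that the study gives with identifiers, and the 5 genes most like *res2*. Sequences are not analysed here.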

Additional observations from a re-analysis of the deposited data

Results flagged for a closer look

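The response of TrA1113C to DTT in lactose (LD/LC) was not the same in both strains when the response difference was tested in the lactose libraries alone. The 4 lactose libraries of Rut-C30 gave 0.15 ± 0.09, those of Δ*res2* gave 1.18 ± 0.06, and the difference was 1.06 ± 0.10 on the log2 scale in the fit of the 8 lactose libraries (adjusted p = 6.15e-05, edgeR). The fit of all 16 libraries gave 1.0 ± 0.38 with an adjusted p of 1, and DESeq2 gave 1.03 with an adjusted p of 1. The level of TrA1113C in Δ*res2* was 1092 ± 8.45 normalized counts in LC and 2422 ± 52.6 in LD, against 4209 ± 201 and 4666 ± 177 in Rut-C30 (SD, n = 2 each).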

How the results depend on the processing

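Over 56 results, 282 of 297 values under other settings kept their direction and their side of the threshold, and 829 of 896 values without 1 library did. With the lactose libraries alone the averaged strain effect of TrA1111C turned to -0.12, and LD/LC of *res2* passed with only its own libraries (0.56) and with the 8 Rut-C30 libraries (0.57, chosen after the data were seen). The count of strain comparisons of the neighbours that passed went from 0 to 1 with DESeq2 and to 2 with only the libraries compared, where the count of response differences went from 0 to 1. The count of genes called among the 20 beside *res2* went from 1 to 4 with the lactose libraries alone and to 0 at an adjusted p under 0.005. With only the libraries compared, GD/GC no longer passed for TrA1111C (adjusted p 0.0609) and TrA1113C (0.148) in Rut-C30 or for TrA1113C (0.14) and TrA1114W (0.0504) in Δ*res2*. LC/GC of TrA1113C in Rut-C30 did not pass there (0.208) or with the 8 Rut-C30 libraries (0.0693, edgeR). The cause of these changes was not tested.

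Without 1 library, GD/GC of *res2* lay between 1.17 and 1.41 and LD/LC between 0.45 and 0.66. LD/LC passed without either GC library of Δ*res2*. The averaged strain effect lay between -0.06 and 0.19 for TrA1111C and between -1.08 and -0.83 for TrA1113C. The count of strain comparisons that passed lay between 0 and 1 (1 without either GC library of Rut-C30 or the second GC library of Δ*res2*), and that of genes called beside *res2* between 0 and 4 (4 without the second GC and 2 without the first GD library of Δ*res2*). Signs that turned belonged to values that did not pass. For TrA1111C these were LC/GC (-0.40 to 0.09) and LD/GD (-0.28 to 0.63) in Δ*res2*, the strain effect in GD (-0.37 to 0.56) and in LC (-0.19 to 0.03), and the strain difference in GD/GC (-0.76 to 0.13) and LD/GD (-0.73 to 0.19). For TrA1113C it was the strain difference in GD/GC (-0.02 to 1.0). For TrA1114W these were LD/GD in Rut-C30 (-0.44 to 0.56), LC/GC in Δ*res2* (-0.13 to 0.89), the strain effect in GD (-0.65 to 0.35) and in LD (-0.01 to 0.10), and the strain difference in LD/GD (-0.31 to 0.69).

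With the replicate number as a block, TrA1113C was at -0.99 on average and no longer passed (adjusted p = 0.0593, edgeR), the count of genes called beside *res2* was 0, and LC/GC of TrA1113C in Rut-C30 was 1.16 (adjusted p = 0.0529). It changed no other call. Libraries of the same number deviated together in Rut-C30 for GC and GD (r = 0.625), GC and LC (0.182) and GD and LC (0.151, across genes, which are not independent replicates), and not in its pairs with LD (-0.0255 to 0.00705) or within Δ*res2* (-0.0995 to 0.0271). Between the strains r lay between -0.271 (GC and GC) and 0.163 (GD of Rut-C30 and LD of Δ*res2*). Not every pair exceeded 0.1, so the numbers were not taken to pair the cultures.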
